A study of Homo sapiens with 6 samples.

Results

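Circular RNAs (circRNAs) that have been linked to the growth of gastric cancer were followed through an oxymatrine experiment in HGC-27 cells. The list held 9 circRNAs by their circBase identifiers, circBase being a public catalogue of human circRNAs, and a probe belonged to the list if its ID began with one of these identifiers. Probes were matched to 3 of the 9, hsa_circ_0000592, hsa_circ_0004771 and hsa_circ_0008549, with 1 probe each, out of 35343 circBase circRNAs measured, each by a single probe. The other 6, hsa_circ_0000199, hsa_circ_0000267, hsa_circ_0000467, hsa_circ_0001368, hsa_circ_0001821 and hsa_circ_0027599, were not analysed here.

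HGC-27 is an established cell line from a human gastric cancer. RNA was measured in 3 of its cultures treated with OMT at 2.64 mg/mL for 48 h, and in 3 cultures left untreated as controls. OMT is oxymatrine in the title of the series, an alkaloid of Sophora roots, whereas the design text calls it an oxidized form of sophoridine. The series describes the samples of a group as biological replicates of this 1 line, and the labels name no vehicle for the controls. Labelled RNA from each culture was hybridised to its own single-colour Agilent array, which reads mRNAs, long noncoding RNAs and circRNAs.

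A circRNA is a closed ring made by back-splicing, in which the end of a downstream exon is joined to the start of an upstream one. Without free ends, such rings resist the exonucleases that degrade linear RNA. In gastric cancer, circRNAs have been studied mainly as RNAs that can bind microRNAs or proteins and so alter proliferation, some being described as promoting growth and others as restraining it. The sources used here annotate none of the 9 identifiers with a host gene, a genome position, a sequence or a function, so the members are given by identifier and the role of a single member is not stated. No probe was paired with a gene name here, so the labelled cell line could not be checked against marker genes.

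The arrays carry 1 feature that touches every level given here. Sorted from low to high, the deposited log2 intensities were the same on the 3 OMT arrays and the same on the 3 control arrays, with a largest difference of 0, but differed between the groups by up to 1.57. Their medians were 2.97 in OMT and 3.97 in controls, so in the deposited values the treatment and the scaling of the arrays cannot be told apart. Each result is therefore given both as deposited and with all 6 arrays brought to 1 distribution by quantile normalization, called joint normalization. That step would also take away a real shift shared by most RNAs. The dark corner spot of each array, which carries no stated RNA target, served as the floor, at 1.18 to 1.33 on OMT arrays and 1.51 to 1.69 on control arrays as deposited. A probe above it lies above the array's own background, and which side it is on does not change with the scaling.

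The deposited change was negative for all 3 measured circRNAs, as for most circBase probes, whose median change was -0.88. Of the 3, hsa_circ_0004771 was the 1 called lower on the OMT arrays, and it did not pass the test after joint normalization. hsa_circ_0000592 passed the test under neither scaling, and its change was negative as deposited and positive after joint normalization. hsa_circ_0008549 lay near or below the dark corner spot on most arrays, so no level change could be read from it. In all, 1 of 3 probes was called lower and 0 were called higher as deposited (limma, Benjamini-Hochberg adjusted p below 0.05 over 175075 RNA probes), where 62.5% of all circBase probes were called lower and 6.07% higher. After joint normalization 0 of 3 were called lower and 0 higher, against 34.2% and 21.9% of circBase probes. At an unadjusted p below 0.05, 2 probes were lower and 0 higher as deposited, and 0 passed in either direction after joint normalization. An adjusted p is never below its unadjusted p, so the circBase shares at that threshold are at least those just given. The median change of all RNA probes was -0.36 as deposited and 0.04 after joint normalization. With 3 probes, of which 1 lay at the floor, these counts cannot be set apart from the background shares.

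**Figure D1:**
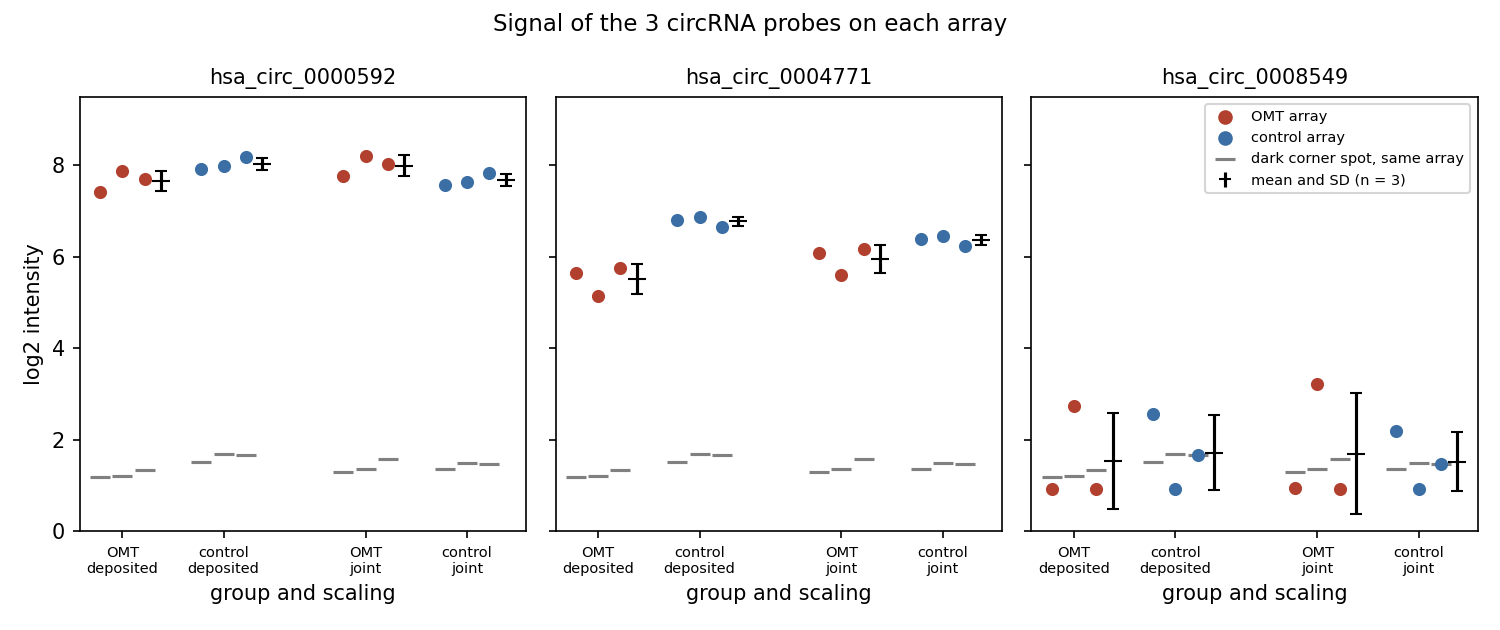
Log2 intensity of each circRNA probe (vertical axis) on the 3 OMT arrays (red) and the 3 control arrays (blue), as deposited and after joint normalization, with mean and SD in black and the dark corner spot of the same array as a grey dash. The hsa_circ_0000592 and hsa_circ_0004771 probes stand well above the dashes on all 6 arrays, whereas the hsa_circ_0008549 probe is above its dash on 1 OMT and 1 control array.

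The deposited log2 intensity of the hsa_circ_0004771 probe was 5.64, 5.15 and 5.75 on the OMT arrays, against 6.79, 6.86 and 6.66 on the control arrays. All OMT values were below all control values, as they were for 68.9% of circBase probes as deposited. The means were 5.51 ± 0.32 in OMT and 6.77 ± 0.10 in controls (SD, n = 3 each), a log2 change of -1.26 with a standard error of 0.18 and an adjusted p of 0.0030 (limma). The 95% interval of the change ran from -1.71 to -0.80, so the control signal was 2.39 times the OMT signal, with limits of 1.74 and 3.28. The second OMT array was the lowest of the 6, and leaving it out gave a change of -1.07 that still passed the test.

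After joint normalization the hsa_circ_0004771 probe read 6.07, 5.61 and 6.17 on the OMT arrays, against 6.38, 6.45 and 6.24 on the control arrays. The groups still did not overlap, which held for 41.3% of circBase probes in that direction, but the gap between the highest OMT value and the lowest control value was small. The means were 5.95 ± 0.30 in OMT and 6.35 ± 0.11 in controls (SD, n = 3 each), a log2 change of -0.40 with a 95% interval of -0.84 to 0.04 and an adjusted p of 0.137 (limma). The interval reached past 0, and without the second OMT array the change was -0.23 (adjusted p 0.154). At the rank of this probe the deposited distributions themselves differed by -0.85 on the log2 scale, OMT minus control, beside the deposited change of -1.26. Relative to the median change of all RNA probes, the probe stood at -0.89 as deposited and -0.44 after joint normalization.

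The deposited log2 intensity of the hsa_circ_0000592 probe was 7.41, 7.86 and 7.69 on the OMT arrays, against 7.93, 7.98 and 8.17 on the control arrays. Every OMT value was below every control value, as for 68.9% of circBase probes as deposited. The highest OMT and the lowest control value were only narrowly apart. The means were 7.65 ± 0.23 in OMT and 8.03 ± 0.13 in controls (SD, n = 3 each), a log2 change of -0.37 with a standard error of 0.14, a 95% interval of -0.74 to -0.01 and an adjusted p of 0.0915 (limma). That change was close to the median change of all RNA probes, from which it differed by -0.01.

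After joint normalization the hsa_circ_0000592 probe read 7.76, 8.20 and 8.02 on the OMT arrays, against 7.58, 7.64 and 7.83 on the control arrays. The groups overlapped, since the lowest OMT value was below the highest control value. The means were 7.99 ± 0.22 in OMT and 7.68 ± 0.13 in controls (SD, n = 3 each), a log2 change of 0.31 with a 95% interval of -0.05 to 0.68 and an adjusted p of 0.159 (limma). The direction of hsa_circ_0000592 thus depended on the scaling: with each array centred on its 75th percentile it had a change of 0.44 with an adjusted p of 0.0452, higher in OMT. Single arrays moved the call as well. Without the second OMT array the probe was called lower as deposited, with a change of -0.48 and an adjusted p of 0.0494. Without the first OMT array it was called higher after joint normalization, with a change of 0.43 and an adjusted p of 0.0482.

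**Figure D2:**
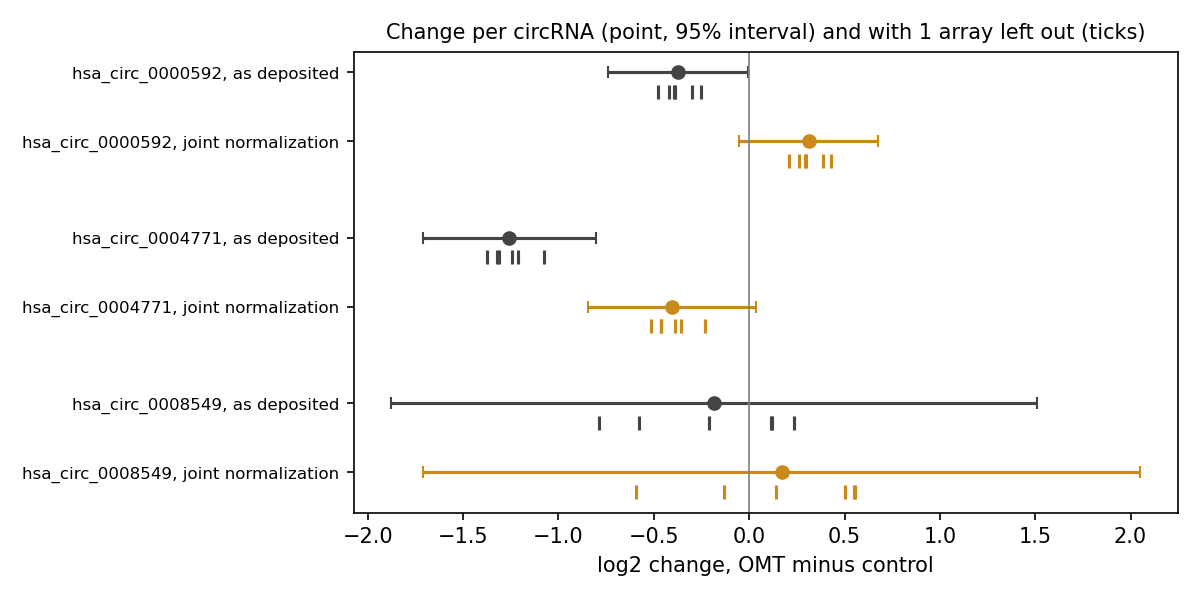
Log2 change (OMT minus control, horizontal axis) of each circRNA as deposited (dark) and after joint normalization (ochre), with the 95% interval of the limma fit and, as ticks below each point, the change with each array left out in turn. The hsa_circ_0004771 interval stays below 0 as deposited and reaches 0.04 after joint normalization, and the hsa_circ_0000592 points lie on opposite sides of 0.

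The hsa_circ_0008549 probe read 0.93, 2.74 and 0.93 on the OMT arrays, against 2.56, 0.92 and 1.66 on the control arrays as deposited. It was above the dark corner spot on the second OMT array and on the first control array, and at or below it on the other 4. The third control array missed that floor by 0.01, and with the negative control spot (1.04 to 1.08 on all arrays) as the floor, the probe was above it on 1 OMT and 2 control arrays. The change was -0.18 as deposited (95% interval -1.88 to 1.51, limma adjusted p 0.847) and 0.17 after joint normalization (interval -1.71 to 2.05, adjusted p 0.883). These intervals hold changes of more than 2-fold in either direction, so a difference was not detectable at this signal. Such a place at the floor was uncommon among circBase probes: 6.92% of them were above the dark corner spot on at most 1 array of each group, and 81.2% were above it on all 6 arrays.

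The other probes stood far from the floor. The hsa_circ_0000592 probe was 6.41 ± 0.21 log2 units above the dark corner spot on OMT arrays and 6.40 ± 0.10 on control arrays as deposited (SD, n = 3 each). On that scale the groups differed by 0.01 (exact two-sided permutation test, p = 1). The hsa_circ_0004771 probe was 4.27 ± 0.29 above the spot on OMT arrays and 5.14 ± 0.15 on control arrays, a difference of -0.87 with an exact p of 0.1. No exact two-sided permutation test of 3 against 3 arrays can go below that p. After joint normalization these differences were 0.34 (exact p 0.1) for hsa_circ_0000592 and -0.37 (exact p 0.2) for hsa_circ_0004771. Read against this spot, whose own deposited level was lower on every OMT array than on any control array, the difference was negative for hsa_circ_0004771 and positive or near 0 for hsa_circ_0000592 under both scalings.

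The place of a probe in the order of its own array does not change with a scaling that keeps that order. The hsa_circ_0004771 probe was above 71.5%, 67.8% and 72.3% of the RNA probes on the OMT arrays, against 73.8%, 74.4% and 72.7% on the control arrays. It stood lower on each OMT array than on any control array, with a mean difference of -3.14 percentage points (exact two-sided permutation p 0.1). Such an order was common. After joint normalization, where a value follows its place, 41.3% of circBase probes were lower on each OMT array than on any control array. The hsa_circ_0000592 probe was above 83.8%, 86.5% and 85.5% on the OMT arrays, against 82.6%, 83.0% and 84.3% on the control arrays. Its mean place was 1.95 percentage points higher in OMT with 1 OMT array inside the control range (exact p 0.2). The hsa_circ_0008549 probe ranged from 3.54% to 47.6% on OMT arrays and from 2.52% to 37.6% on control arrays, so its groups overlapped over most of their range.

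**Figure D3:**
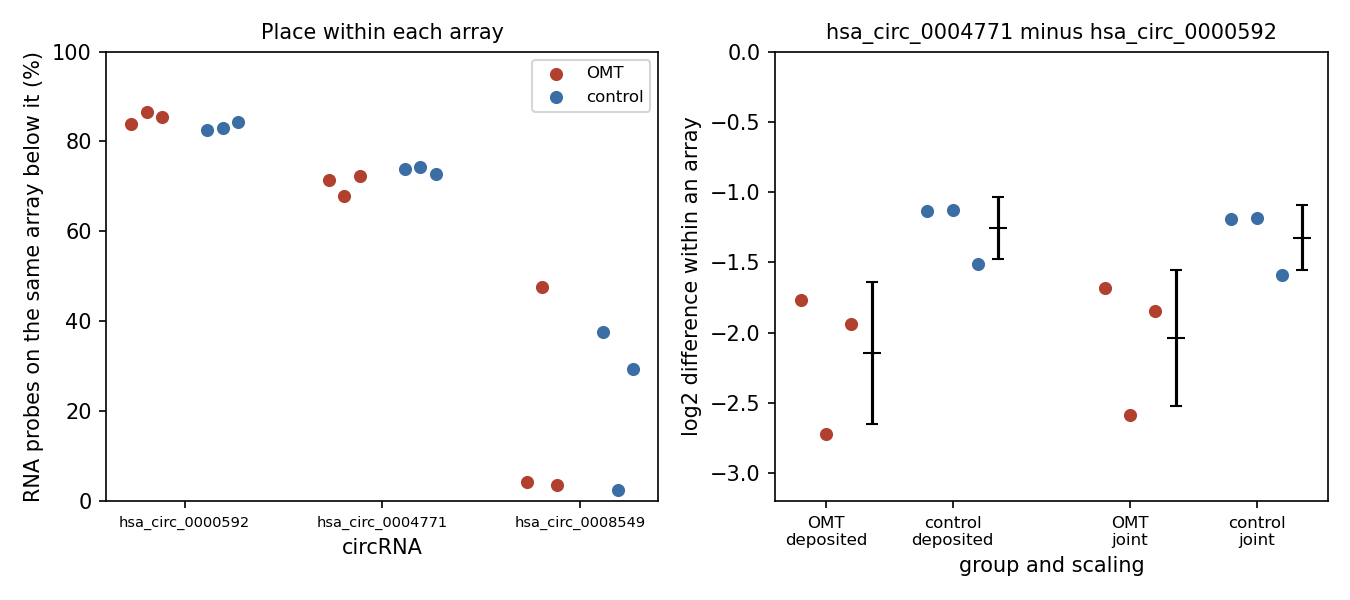
Left, the share of RNA probes on the same array that lay below each circRNA probe (vertical axis, percent) on OMT arrays (red) and control arrays (blue). Right, the log2 difference between the hsa_circ_0004771 and hsa_circ_0000592 probes on each array, as deposited and after joint normalization, with mean and SD in black: all OMT arrays lie below all control arrays under both scalings.

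For the pair of circRNAs above the floor on every array, the difference in their changes was measured within each array. The log2 signal of hsa_circ_0004771 minus that of hsa_circ_0000592 was -1.77, -2.72 and -1.94 on the OMT arrays, against -1.13, -1.13 and -1.51 on the control arrays as deposited. This subtraction removes any shift that an array gives to both probes alike, and the groups did not overlap. How many other probe pairs lack overlap was not counted. The deposited distributions differed by -0.85 at the rank of hsa_circ_0004771 and by -0.68 at that of hsa_circ_0000592, so their shift was not fully removed. The difference between the groups was -0.89 as deposited and -0.72 after joint normalization, each with an exact two-sided p of 0.1, the lowest possible with 6 arrays, so it could not pass the threshold. Leaving out 1 array gave -1.07 to -0.60 as deposited, and the value nearest to 0 was the one without the second OMT array. This pair was picked after the values were seen. It was the 1 pair compared, since hsa_circ_0008549 lay at the floor.

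Against the changes of all circBase probes, hsa_circ_0004771 and hsa_circ_0000592 lay in the middle of the range. As deposited, 37.6% of circBase probes had a change below that of hsa_circ_0004771 and 68.5% below that of hsa_circ_0000592. After joint normalization these shares were 40.5% and 70.9%. No such place is given for hsa_circ_0008549, whose signal was at the floor. The median change of all circBase probes was -0.88 as deposited and -0.15 after joint normalization, against -1.26 and -0.40 for hsa_circ_0004771 and -0.37 and 0.31 for hsa_circ_0000592. The probes also carry different numbers in their IDs, which no source used here explains. Where the number before the last was 15, as in hsa_circ_0004771_15_41, the 1478 circBase probes had a median change of -1.34 as deposited and -0.55 after joint normalization. Where it was 3, as in hsa_circ_0000592_3_25, 983 probes had medians of -0.58 and 0.10. The part of this number in the difference between the 2 circRNAs was not tested.

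**Figure D4:**
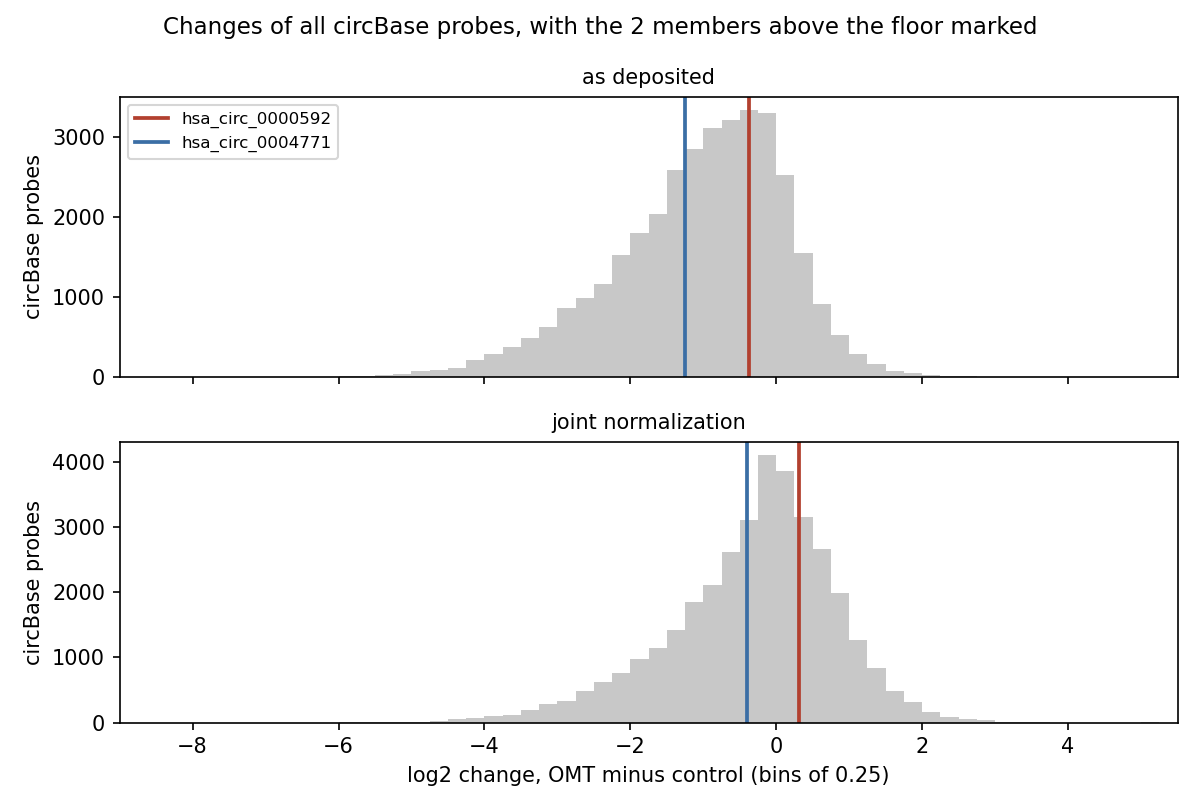
Number of circBase probes (vertical axis) by log2 change, OMT minus control (horizontal axis, bins of 0.25), as deposited above and after joint normalization below, with the changes of hsa_circ_0000592 and hsa_circ_0004771 as vertical lines. Both lines fall within the body of the distribution, hsa_circ_0004771 to the left under both scalings.

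The circRNA probe outside the list with the most similar pattern was sought for each of the 2 circRNAs above the floor, as the smallest root mean square difference between deviations from the probes' own means over the 6 arrays after joint normalization. For hsa_circ_0000592 it was hsa_circ_0008216_4_13, at 0.01 log2 units, and for hsa_circ_0004771 it was hsa_circ_0075861_6_12, at 0.04. Among 47896 candidates the median differences were 0.46 and 0.49. With so many candidates a close match is readily found, so the likeness is a description of 6 arrays only.

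A second list held 21 other circRNAs that have been reported in gastric cancer, of which 8 had a matched probe. All 8 were above the dark corner spot on the 6 arrays, unlike hsa_circ_0008549. As deposited 6 of the 8 were called lower in OMT and 0 higher (limma, adjusted p below 0.05), with a median change of -0.51. Of all circBase probes, 62.5% were called lower and 6.07% higher as deposited. At an unadjusted p below 0.05 the counts were also 6 and 0, and the circBase shares at that threshold are at least as large. After joint normalization 1 was lower and 3 were higher, with a median of 0.21, where 34.2% of circBase probes were lower and 21.9% higher, so the split by direction depended on the scaling here as it did for all circBase probes. The 1 called in the same direction under both scalings was hsa_circ_0032627, while 0 were called higher under both. Of all circBase probes, 34.2% were called lower and 6.07% higher under both. Its deposited level was 6.70, 6.30 and 6.54 on the OMT arrays, against 7.80, 7.72 and 7.69 on the control arrays. The change was -1.22 as deposited (limma adjusted p 0.000775) and -0.48 after joint normalization (adjusted p 0.0246). The changes of hsa_circ_0004771 were -1.26 and -0.40. After joint normalization the SD between OMT arrays was 0.30 for hsa_circ_0004771 and 0.19 for hsa_circ_0032627.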

How the data were processed

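Total RNA of 6 cultures was made into Cy3-labelled cRNA and hybridised to single-colour Agilent arrays, per the labels' protocols, and the submitters' processing notes name Agilent Feature Extraction. The values deposited by the authors were taken as log2 intensities from their range of 0.88 to 18.9. Which normalization the authors applied is not stated. All 6 columns matched a sample by accession and 0 were unmapped. Detection flags and scan batches were not used here, and the number of arrays limits the precision.

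Groups were compared with limma 3.58.1 in R 4.3.3 (treatment as the only term, two-sided) over 175075 RNA probes, leaving out 68 control spots, with Benjamini-Hochberg adjustment. The fit was tested on simulated data. At a log2 size of 1 it called 15 of 100 changed probes, and at a size of 2 it called 61 of 100, with 3 false calls. No other probe of the 175075 was changed, a far smaller share than was called on the real arrays. The adjusted threshold was thus stricter in the simulation, and its rates do not give the share of real changes that were missed. A change that was not called may still be present. Single values were compared by exact permutation over 20 labelings. Joint normalization used limma's quantile method on all 175143 rows. Centring, filters on dim probes, variance models, array weights, stricter thresholds, a replicate block and leaving out arrays were tried.

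All member probes are named. The members and lists were chosen with earlier results of these data known. The planned test between probes of 1 circRNA was not run, since each has 1 probe. Figures used matplotlib 3.10.9.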

Additional observations from a re-analysis of the deposited data

How the results depend on the processing

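Scaling changed the values of hsa_circ_0004771 and hsa_circ_0000592 more than any other choice, while single arrays also moved hsa_circ_0008549 widely. As deposited hsa_circ_0004771 changed by -1.26, against -0.40 after joint normalization (limma adjusted p 0.137) and -0.45 after centring on the 75th percentile (adjusted p 0.0773). hsa_circ_0000592 turned from -0.37 to 0.31 and 0.44 under these 2 scalings, and hsa_circ_0008549 from -0.18 to 0.17 and 0.62. Joint normalization and centring thus left 0 of the 3 probes called lower, against 1 as deposited, and centring called 1 higher, against 0. These moves follow from how each scaling treats 2 distributions that differ between the groups. For the second list, joint normalization gave 3 higher and 1 lower, against 0 and 6 as deposited.

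Leaving out 1 array gave -1.38 to -1.07 for hsa_circ_0004771, -0.48 to -0.25 for hsa_circ_0000592 and -0.79 to 0.24 for hsa_circ_0008549 as deposited, with 1 to 2 probes called lower. hsa_circ_0008549 was above 0 without OMT replicate 1 (0.12), OMT replicate 3 (0.12) or control replicate 1 (0.24). After joint normalization the ranges were -0.51 to -0.23, 0.21 to 0.43 and -0.59 to 0.55, with 0 to 1 probes called higher. hsa_circ_0008549 was then below 0 without OMT replicate 2 (-0.59) or control replicate 2 (-0.13), and hsa_circ_0004771 was called in 0 of 6 fits. For the 3 probes as deposited, no call changed with dim probes left out, with array weights, with trend and robust fitting, or with the threshold at 0.01 or joined to a 2-fold minimum, and these settings were not run after joint normalization or for the second list. Leaving out the dimmer 50% of probes gave no value for hsa_circ_0008549.

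Replicate numbers did not pair the samples: the correlations of deviations between arrays of the same number were 0.03, -0.11 and 0.01 over the 87537 brighter probes. With the replicate block hsa_circ_0004771 kept its change of -1.26 (adjusted p 0.0217) and no call changed. Comparisons with the negative control spot and between the pair of circRNAs were chosen after seeing the data. Signal over background limits hsa_circ_0008549 alone among the 3.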
